A study of Mus musculus with 28 samples.

Results

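Transcripts of the Hox genes were followed in 28 skin libraries from 2 mouse experiments on Vsir, the gene of VISTA, a checkpoint receptor that restrains immune cells. The members were the 39 genes whose name is Hoxa, Hoxb, Hoxc or Hoxd followed by a number alone, among 51976 genes present in both deposited count tables. All 39 were found in both tables, which hold 55573 genes for the whole-body experiment and 57126 genes for the keratinocyte experiment. They form 4 clusters: 11 Hoxa genes over 105 kb of chromosome 6, 10 Hoxb genes over 174 kb of chromosome 11, 9 Hoxc genes over 116 kb of chromosome 15 and 9 Hoxd genes over 96.8 kb of chromosome 2 (GRCm38). Genes with the same number in different clusters are paralogs, and they were read in 4 bands: 15 genes of paralog groups 1 to 5, 8 of groups 6 to 8, 7 of groups 9 to 10 and 9 of groups 11 to 13.

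Every mouse was a 12-week-old female whose hair was shaved and then removed chemically 5 days before exposure or the matching time point. The tissue label is skin, while the series title names epidermis. The UV groups received ultraviolet B light (UVB) at 500 mJ/cm², and the NoUV groups received none. In the whole-body experiment, Vsir-/- mice that lack Vsir in all cells (KO) after UV and without UV were set against wild-type mice (WT) after UV and without UV, with 3 libraries per group. In the keratinocyte experiment, Vsir fl/fl mice carrying K14Cre (cKO) after UV and without UV were set against Vsir fl/fl mice without Cre (FL) after UV and without UV, with 4 libraries per group. The K14 promoter drives Cre in keratinocytes, so the other cells of the skin keep Vsir in cKO mice. The design text calls the controls littermates and the replicates biological, and the p-values measure the spread between these samples. The time of harvest is given as 3 h in the titles and the design text and as 1 day in the treatment protocol. A label called batch has 1 value in the whole-body experiment and another in the keratinocyte experiment. The body site of the skin is not given in the sources used here, so exposure and the position of the sampled skin cannot be told apart.

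Hox genes encode homeodomain transcription factors that give cells of the embryo a position along the head-to-tail axis. Their order along each cluster follows the order of the body regions where they act: low-numbered genes reach far forward, and high-numbered genes are used towards the tail, the distal limb and the genital region. The proteins bind DNA together with cofactors of the Pbx and Meis families. In adult skin, fibroblasts in particular retain a Hox pattern that depends on the body site, and Hoxc13 has a separate role in hair shaft formation.

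Whole-body libraries held 30.47 to 43.84 M counts in total and keratinocyte libraries 7.12 to 31.14 M, where FL_NoUV replicate 1 with 7.12 M and cKO_UV replicate 3 with 7.51 M were the shallowest. Of these, 6469 to 10817 counts per library fell on Hox genes in the whole-body experiment and 1746 to 14589 in the keratinocyte experiment. The labelled tissue was checked with keratinocyte markers such as Krt14 and fibroblast markers such as Col1a1: 6 of 6 and 6 of 6 were above 0 in every library. Vsir stood at 1.98 to 3.76 CPM (counts per 1 M library counts, TMM scaled) in KO_UV and 5.07 to 6.87 CPM in KO_NoUV, against 20.2 to 23.96 CPM in WT_UV and 34.5 to 46.1 CPM in WT_NoUV. In whole skin the keratinocyte deletion gave overlapping ranges of 14.5 to 39.6 CPM in cKO_UV and 17.0 to 45.0 CPM in cKO_NoUV, against 25.0 to 36.3 CPM in FL_UV and 19.4 to 38.5 CPM in FL_NoUV. In cKO and FL skin, 3 libraries stood apart from the rest of their groups in several posterior Hox genes: cKO_NoUV replicate 1, FL_NoUV replicate 1 and FL_UV replicate 2. Values without them are given where they changed a call.

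Hox genes of groups 2 to 10 had more than 3 counts in every library, apart from Hoxc10, which did in 6 of 12 whole-body and 10 of 16 keratinocyte libraries, and Hoxd3, which did in 12 of 12 and 15 of 16. Those of groups 11 to 13 other than Hoxc13 were hardly read at all. Of the 39 genes, 29 passed the filter on low counts in each experiment: 13 of 15 in groups 1 to 5, 8 of 8 in groups 6 to 8, 7 of 7 in groups 9 to 10, and 1 of 9, Hoxc13, in groups 11 to 13. In all, 27 genes had more than 3 counts in each of the 28 libraries. Below the filter were Hoxb1 and Hoxd1, forward-most genes, together with Hoxa11, Hoxa13, Hoxb13, Hoxc11, Hoxc12, Hoxd11, Hoxd12 and Hoxd13. Hoxb13, a tail-end gene, had 0 counts in all 12 whole-body libraries, which allows at most 3 counts per library, or 0.0661 to 0.104 CPM. Hoxd12 was likewise at 0 counts in all 12.

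Per kilobase of the gene length in the files, Hoxa7 was the highest member in both control groups without UV, with a mean of 19.6 CPM per kb in FL_NoUV and 10.51 CPM per kb in WT_NoUV. The central genes Hoxd8 and Hoxc8 and the group 5 gene Hoxa5 followed in WT_NoUV with 9.34, 8.29 and 7.62 CPM per kb. In FL_NoUV, Hoxa5 had 9.59, Hoxc8 9.25, Hoxd8 8.87 and Hoxb8 8.86 CPM per kb. The mean of Hoxc13 there, 13.2 CPM per kb, rested on replicate 4 with 31.3 CPM per kb and was 7.10 CPM per kb without it, below those 4 genes. By their means, the posterior genes Hoxa9, Hoxa10 and Hoxb9 stood below 1 CPM per kb in WT_NoUV, at 0.472, 0.318 and 0.613, and above 1 in FL_NoUV, at 2.17, 1.20 and 3.58. FL_NoUV replicate 1 was itself below 1, at 0.228, 0.433 and 0.440 CPM per kb. Of the rest of groups 9 to 10, Hoxc10 was also higher in FL_NoUV, and Hoxc9 and Hoxd10 overlapped. Hoxd9 went the other way, with 2.82 to 3.11 CPM per kb in WT_NoUV and 0.729 to 2.47 in FL_NoUV. The experiments were sequenced apart, so these levels are set side by side without a test.

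**Figure D1:**
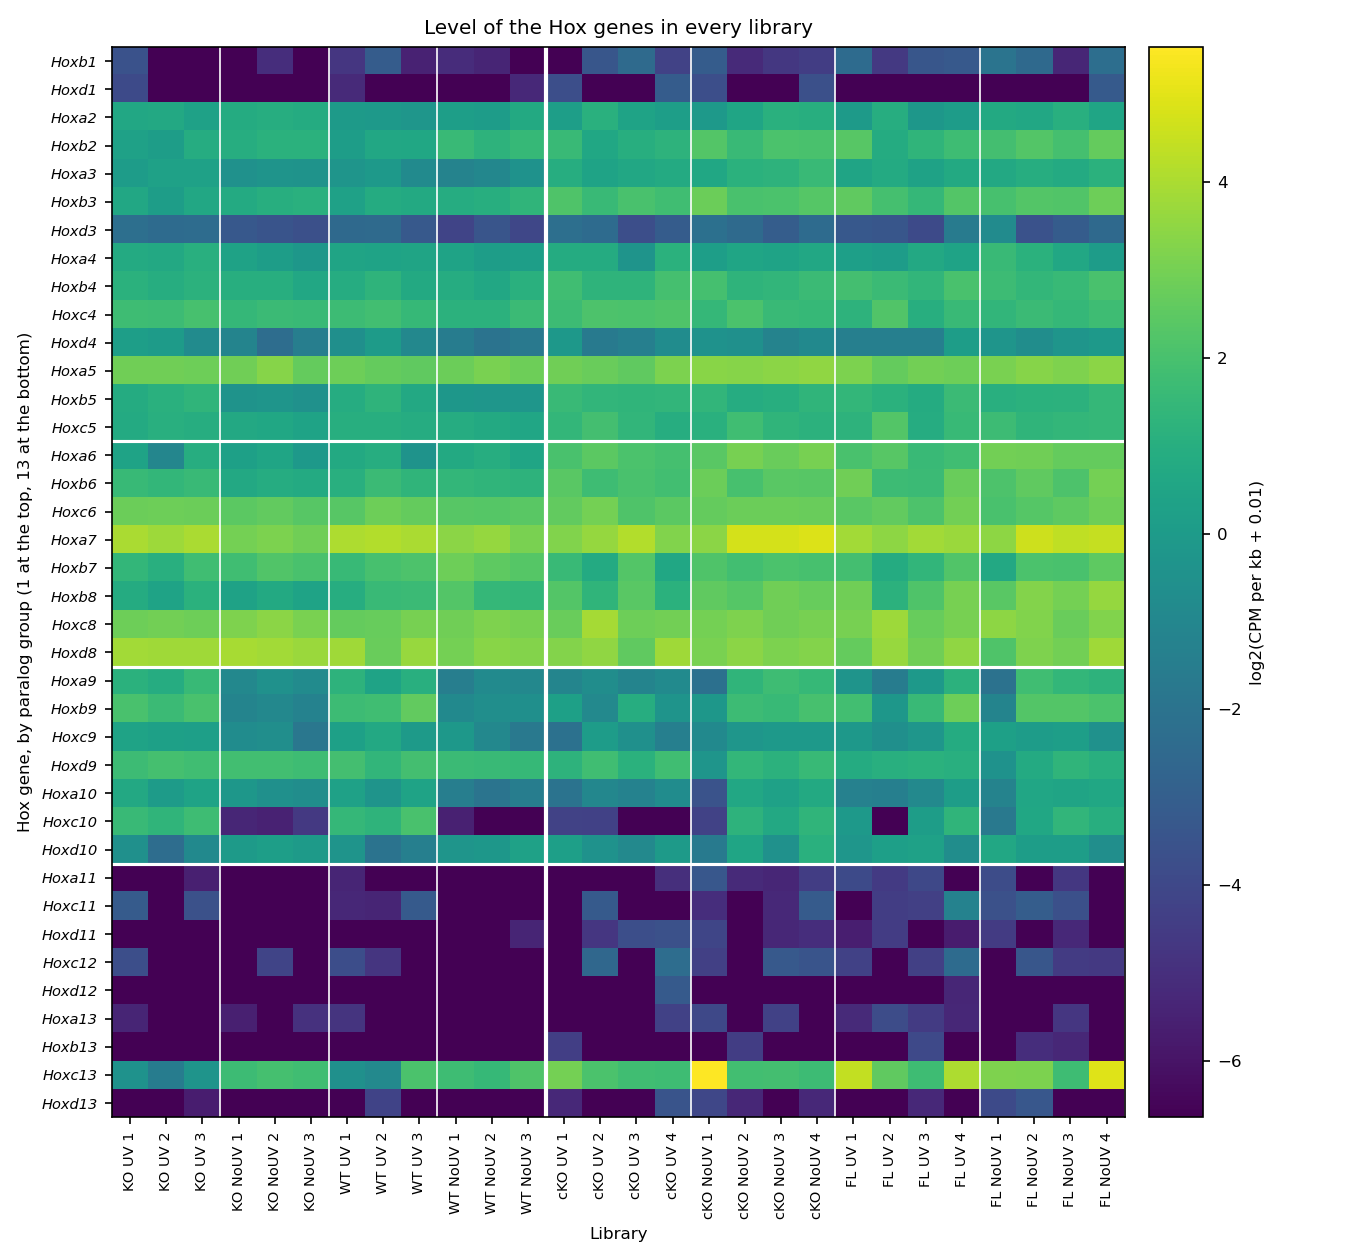
Level of 38 Hox genes (down the page, by paralog group) in each of the 28 libraries (across, by group), as log2 of CPM per kb plus 0.01 on the colour scale. Hoxa7, Hoxc8 and Hoxd8 were above 4 CPM per kb in all libraries, Hoxc10 was present in the 6 UV libraries of the whole-body experiment and near 0 in its NoUV libraries, and groups 11 to 13 other than Hoxc13 were near 0.

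In the whole-body experiment the Hox genes of groups 9 to 10 that changed were higher after UV in both genotypes. By edgeR's quasi-likelihood test at an adjusted p of 0.05, 13 of 29 Hox genes changed after UV in KO skin (11 higher, 2 lower), where 22.4% of all 20365 genes tested were called, 11.3% higher and 11.1% lower. After UV in WT skin, 10 of 29 changed (8 higher, 2 lower), where 18.7% of all genes were called, 8.91% higher and 9.84% lower. Groups 9 to 10 held 5 higher of 7 in KO and 4 higher of 7 in WT, with a median log2 fold change (log2FC) of 1.28 in KO and 1.81 in WT. The median over all 29 Hox genes was 0.32 in KO and 0.21 in WT, beside 0.02 and -0.01 over all genes tested. The KO count was 6 without KO_UV replicate 1, KO_NoUV replicate 2 or KO_NoUV replicate 3, 7 without KO_UV replicate 2 and 8 without KO_UV replicate 3 or KO_NoUV replicate 1, and Hoxa7, Hoxa9, Hoxb5, Hoxb9 and Hoxc10 were called each time. The WT count was 5 when the KO groups were left out of the fit (Hoxa9, Hoxa10, Hoxb5, Hoxb9 and Hoxc10). How many of all genes were called in these alternative fits is not given here. In bulk skin, fewer cells of a type and less RNA per cell cannot be told apart.

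In cKO and FL skin the same exposure gave few Hox calls, and these were lower after UV. In cKO skin 2 of 29 Hox genes were called, Hoxa5 and Hoxc10, both lower, where 9.72% of 19718 genes tested were called, 4.57% higher and 5.15% lower. In FL skin 1 of 29 was called, Hoxa6, also lower, where 7.62% of all genes were called, 3.52% higher and 4.09% lower. The median log2FC of the 29 genes was -0.40 in cKO and -0.29 in FL, beside 0.01 over all genes tested in each. The counts in this experiment depended on single libraries and settings: without cKO_NoUV replicate 1, 7 Hox genes were lower after UV in cKO (Hoxa3, Hoxa5, Hoxa6, Hoxa7, Hoxa9, Hoxa10 and Hoxc10), and with DESeq2 5 were (Hoxa5, Hoxa6, Hoxa7, Hoxb2 and Hoxc10). The calls over all genes under these settings are not given here.

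Hoxc10, a group 10 gene at chr15:102966796-102971893 on the plus strand (GRCm38) that is known from the lumbar region and hindlimb, separated the UV libraries from the NoUV libraries of the whole-body experiment. Its level was 5.87, 4.77 and 6.47 CPM in KO_UV, against 0.0275, 0.0235 and 0.0579 CPM in KO_NoUV. It was 5.20, 4.63 and 7.74 CPM in WT_UV, against 0.0220, 0 and 0 CPM in WT_NoUV. All 6 UV libraries stood far above all 6 NoUV libraries, and the WT_NoUV group rested on 1 count in all.

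Over summed counts, scaled by library size, the KO_UV to KO_NoUV ratio of Hoxc10 was 164 (572 against 4 counts, exact 95% interval 63.9 to 605). The WT_UV to WT_NoUV ratio was 649 (601 against 1 count, exact 95% interval 116 to 25675). These intervals cover counting error only. In the edgeR fit the gene was called higher after UV with an adjusted p of 8.87e-06 in KO and 4.74e-06 in WT, and it was called in 18 of 18 alternatives in each genotype. The fitted log2FC of 7.20 in KO and 8.87 in WT depend on the prior count at such low levels.

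In the keratinocyte experiment Hoxc10 took the opposite direction in cKO skin. Its level was 0.0823, 0.0801, 0 and 0 CPM in cKO_UV, against 0.0829, 4.40, 3.14 and 4.81 CPM in cKO_NoUV, and the low library, cKO_NoUV replicate 1, had 2 counts, as many as the highest cKO_UV libraries. In FL skin it was 1.79, 0, 2.09 and 4.71 CPM in FL_UV, against 0.567, 2.92, 4.98 and 3.76 CPM in FL_NoUV, and those groups overlapped. The summed counts were 4 in cKO_UV against 323 in cKO_NoUV, a scaled ratio of 0.0167 (exact 95% interval 0.00452 to 0.0432, counting error only). The edgeR log2FC after UV was -5.79 in cKO (SE 1.37, adjusted p = 0.0161) and -0.53 in FL (95% interval -2.46 to 1.41, adjusted p = 0.785).

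The cKO call of Hoxc10 was lost with an adjusted p of 0.0702 without a filter on low counts and 0.0521 without cKO_UV replicate 4. The call was kept without cKO_NoUV replicate 1. With the cKO groups alone in the fit, Hoxc10 did not pass the filter on low counts and so was not tested. The difference of the UV effect between cKO and FL did not pass the threshold (log2FC -5.26, edgeR adjusted p = 1.00), nor did cKO against FL after UV (log2FC -5.28, adjusted p = 0.865).

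**Figure D2:**
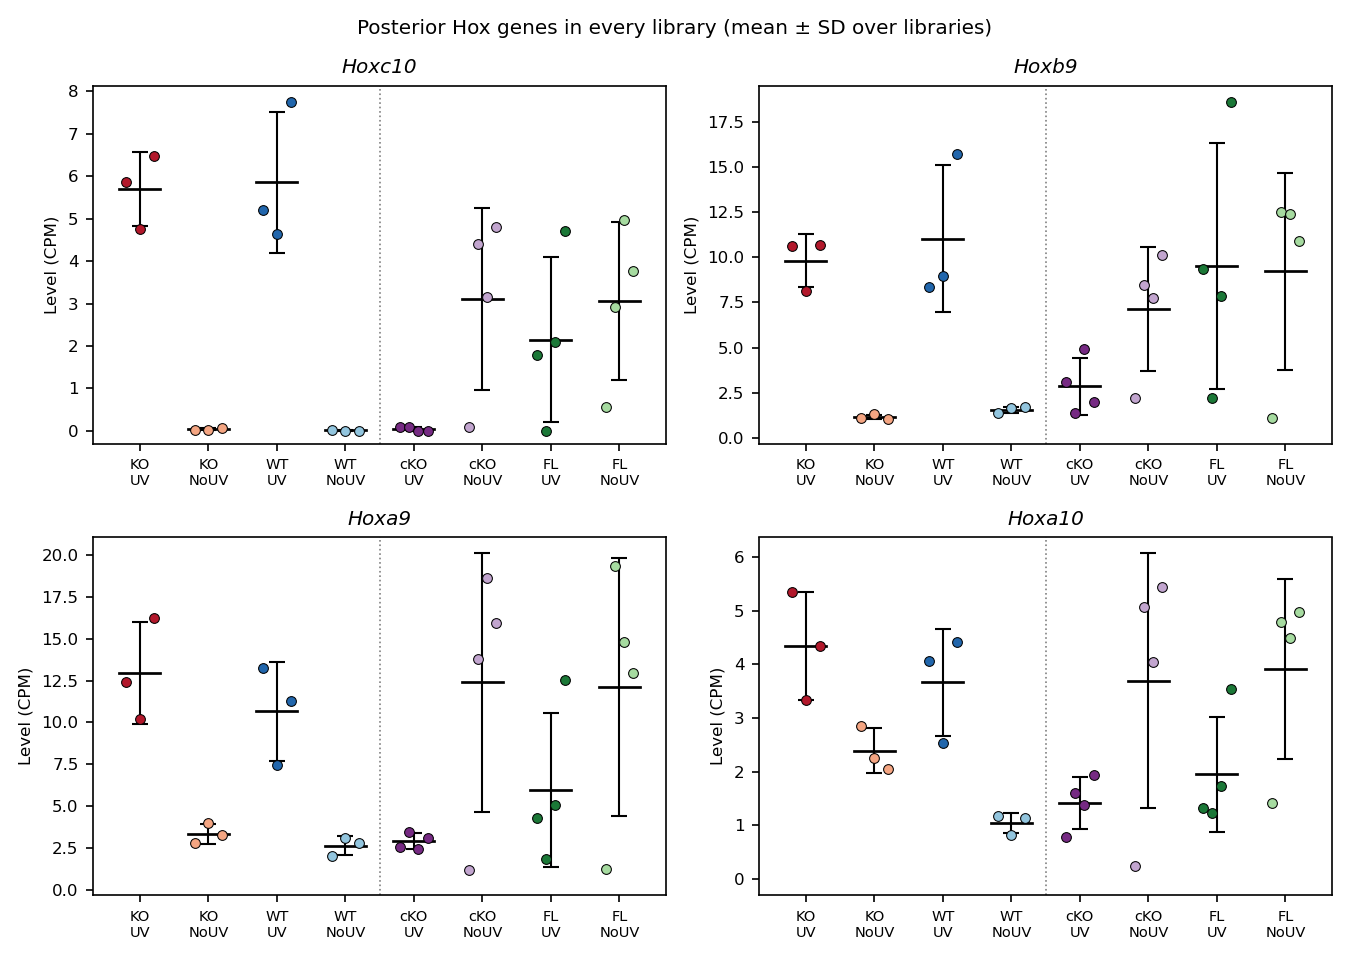
CPM of Hoxc10, Hoxb9, Hoxa9 and Hoxa10 in each library (points) with the mean and SD of each group (bars), KO and WT left of the dotted line and cKO and FL right of it. The UV and NoUV groups of KO and WT do not overlap in any of the 4 genes, whereas within cKO_NoUV and FL_NoUV replicate 1 lies apart from the other 3 libraries.

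Hoxb9, at chr11:96271457-96276595 on the plus strand (GRCm38), belongs to group 9, whose members act in the thoracic region and mammary gland. It stood at 10.6, 8.11 and 10.7 CPM in KO_UV, against 1.13, 1.32 and 1.07 CPM in KO_NoUV, and at 8.36, 8.99 and 15.7 CPM in WT_UV, against 1.39, 1.64 and 1.70 CPM in WT_NoUV. The lowest UV library was above the highest NoUV library in both genotypes (edgeR adjusted p = 4.83e-05 in KO and 1.51e-04 in WT), and the calls held in 18 of 18 alternatives in each. Among cKO and FL libraries, it stood at 3.13, 1.36, 4.94 and 1.99 CPM in cKO_UV, against 2.20, 8.45, 7.72 and 10.1 CPM in cKO_NoUV, and at 9.34, 2.24, 7.87 and 18.6 CPM in FL_UV, against 1.13, 12.5, 12.4 and 10.9 CPM in FL_NoUV. The groups of each genotype overlapped there, with a log2FC of -1.37 in cKO (edgeR adjusted p = 0.227) and 0.03 in FL (adjusted p = 0.985).

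Hoxa9, at chr6:52223100-52231089 on the minus strand (GRCm38), is a group 9 gene also known from blood stem cells. Its level was 12.4, 10.2 and 16.2 CPM in KO_UV, against 2.83, 4.00 and 3.27 CPM in KO_NoUV, and 13.3, 7.44 and 11.3 CPM in WT_UV, against 2.005, 3.09 and 2.81 CPM in WT_NoUV. The groups did not overlap, and edgeR gave a log2FC of 1.94 in KO (SE 0.27, adjusted p = 4.82e-04) and 2.02 in WT (SE 0.27, adjusted p = 6.01e-04). Across the keratinocyte experiment, it was 2.59, 3.49, 2.47 and 3.08 CPM in cKO_UV, against 1.20, 13.8, 18.6 and 15.9 CPM in cKO_NoUV, and 4.31, 1.88, 5.10 and 12.5 CPM in FL_UV, against 1.27, 19.4, 14.8 and 12.97 CPM in FL_NoUV. In cKO_NoUV and in FL_NoUV, 3 libraries were above every cKO_UV and FL_UV library and replicate 1 was below all of them. The log2FC was -2.08 in cKO (SE 0.76, edgeR adjusted p = 0.0989) and -1.03 in FL (adjusted p = 0.431), and without cKO_NoUV replicate 1 the cKO value was -2.46 with an adjusted p of 0.0267.

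Hoxa10, the neighbour of Hoxa9 at chr6:52231197-52240854 on the minus strand (GRCm38), is known from the uterus and the lumbar region. It stood at 5.35, 3.34 and 4.35 CPM in KO_UV, against 2.86, 2.26 and 2.06 CPM in KO_NoUV, and at 4.07, 2.54 and 4.41 CPM in WT_UV, against 1.17, 0.820 and 1.13 CPM in WT_NoUV. UV and NoUV did not overlap in either genotype, and the KO_NoUV libraries were above the WT_NoUV libraries. The log2FC after UV was 0.86 in KO (SE 0.28, edgeR adjusted p = 0.0403) and 1.81 in WT (SE 0.29, adjusted p = 0.00149). The WT call held in 18 of 18 alternatives and the KO call in 11 of 18. The KO call was lost without any of KO_UV replicates 1 and 3, KO_NoUV replicates 1 to 3 and WT_UV replicate 1, with adjusted p from 0.0529 to 0.172, and without a filter. In cKO and FL skin, Hoxa10 was 0.782, 1.60, 1.37 and 1.94 CPM in cKO_UV, against 0.249, 5.07, 4.05 and 5.44 CPM in cKO_NoUV, and 1.32, 1.23, 1.73 and 3.53 CPM in FL_UV, against 1.42, 4.78, 4.50 and 4.98 CPM in FL_NoUV. Apart from replicate 1, the NoUV libraries lay above the UV libraries there, with a log2FC of -1.38 in cKO (edgeR adjusted p = 0.189; 0.0188 without cKO_NoUV replicate 1) and -1.02 in FL (adjusted p = 0.351).

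The 3 other genes of groups 9 to 10 did not follow this pattern to the same extent. Hoxc9 had 3.24, 2.92 and 2.81 CPM in KO_UV, against 1.46, 1.55 and 0.666 CPM in KO_NoUV, and it was called higher in KO (log2FC 1.28, SE 0.40, edgeR adjusted p = 0.0355), a call lost without any one of the 6 KO libraries (adjusted p from 0.0565 to 0.134) and with the mean level of hair follicle markers as a covariate (hair covariate, 0.0691). In WT its means were 3.10 ± 0.830 CPM in WT_UV and 1.38 ± 0.755 CPM in WT_NoUV (SD, n = 3 each), with an edgeR adjusted p of 0.0599. The WT value passed with DESeq2 (adjusted p = 0.0199), with replicate number as a block (0.0258) and with no filter (0.0405), and without WT_NoUV replicate 1 (log2FC 1.67, edgeR adjusted p = 0.0113) or KO_NoUV replicate 3 (0.0443). Hoxd9 had 6.97, 8.18 and 7.42 CPM in KO_UV, against 7.63, 7.70 and 7.27 CPM in KO_NoUV, and 7.91, 5.57 and 8.05 CPM in WT_UV, against 6.65, 6.47 and 6.03 CPM in WT_NoUV. These groups overlapped in both genotypes, and the log2FC in KO was 0.00 with a 95% interval of -0.40 to 0.39. In WT the Hoxd9 log2FC was 0.17 (95% interval -0.23 to 0.56, edgeR adjusted p = 0.576). Hoxd10, a hindlimb motor region gene, had log2FC values of -1.12 in KO (adjusted p = 0.0927) and -1.07 in WT (adjusted p = 0.119), the sign opposite to that of Hoxa10 and Hoxc10. It was called lower in KO with the KO groups alone in the fit (edgeR adjusted p = 0.041) and in WT without WT_UV replicate 1 (log2FC -1.67, adjusted p = 0.0305).

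The promoters of Hoxa9 and Hoxd9 are shown because these paralogs of group 9 differed after UV in the whole-body experiment, where Hoxa9 was called higher and Hoxd9 was not. They are RefSeq sequences of GRCm38.p6, 250 bases before to 50 after the annotated start, at chr6:52227321-52227620 on the minus strand and chr2:74697513-74697812 on the plus strand. The Hoxa9 window lies at an internal start, inside the counted gene, whose 5′ end is at 52231089. The Hoxd9 window spans the 5′ end of its gene, at 74697727. The windows are therefore not at like positions, and a link of their bases to the UV values was not tested. Capitals mark CpG dinucleotides.
Hoxa9: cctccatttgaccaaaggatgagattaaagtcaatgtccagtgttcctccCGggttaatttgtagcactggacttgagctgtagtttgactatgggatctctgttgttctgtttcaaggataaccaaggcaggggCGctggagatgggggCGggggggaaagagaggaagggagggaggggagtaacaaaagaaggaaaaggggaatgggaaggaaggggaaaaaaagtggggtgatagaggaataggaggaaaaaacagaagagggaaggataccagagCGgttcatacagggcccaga
Hoxd9: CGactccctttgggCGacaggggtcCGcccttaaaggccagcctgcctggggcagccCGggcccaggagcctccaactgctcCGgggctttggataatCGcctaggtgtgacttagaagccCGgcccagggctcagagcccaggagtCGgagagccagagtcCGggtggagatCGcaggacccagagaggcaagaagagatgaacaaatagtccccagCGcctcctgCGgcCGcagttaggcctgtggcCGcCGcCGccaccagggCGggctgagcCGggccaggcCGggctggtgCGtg
The Hoxa9 window holds 4 CpG and the Hoxd9 window 20. Over the 24 entries that matched 22 of the 39 Hox genes, the upper of the middle values was 15. Over all promoters in the table the median was 7. On both strands, the motif TGATNNAT, a joint Pbx and Hox site, occurred in 4 of the 24 Hox windows (16.67%), against 8.846% of all 32851. The homeodomain core TAATTA occurred in 8.333% of the Hox windows, against 5.291% of all, and the CDX motif TTTATNG in 8.333%, against 10.91%. Neither of the printed windows holds any of these letters, and no match of one motif lies within a match of another.

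Among the central genes of groups 6 to 8, Hoxa7 was higher after UV in both KO and WT. Hoxa7, at chr6:52214491-52221854 on the minus strand (GRCm38), stood at 45.7, 38.5 and 45.8 CPM in KO_UV, against 22.9, 25.6 and 21.2 CPM in KO_NoUV, and at 47.5, 50.6 and 46.2 CPM in WT_UV, against 31.2, 34.9 and 24.5 CPM in WT_NoUV. The UV libraries were all higher, with a log2FC of 0.90 in KO (SE 0.15, edgeR adjusted p = 0.0015) and 0.67 in WT (SE 0.15, adjusted p = 0.00935), lost in WT only when the other genotype was left out of the fit (adjusted p = 0.0712). In the keratinocyte experiment it was 27.2, 35.3, 50.3 and 27.0 CPM in cKO_UV, against 30.5, 76.7, 76.5 and 84.8 CPM in cKO_NoUV, and 41.5, 32.2, 40.9 and 38.0 CPM in FL_UV, against 31.4, 71.3, 59.0 and 64.0 CPM in FL_NoUV. In both genotypes 3 NoUV libraries lay above all UV libraries, while cKO_NoUV replicate 1 lay within the cKO_UV range and FL_NoUV replicate 1 just below the FL_UV range, with a log2FC of -0.95 in cKO (SE 0.30, edgeR adjusted p = 0.0562) and -0.57 in FL (adjusted p = 0.269). The cKO value passed without cKO_NoUV replicate 1 (log2FC -1.20, edgeR adjusted p = 0.00631), FL_NoUV replicate 1 (0.0324) or cKO_UV replicate 3 (0.0358), with the replicate block (0.0357), with the hair covariate (0.035) and with DESeq2 (0.02). The exons of Hoxa7 overlap other annotated genes over 20.4% of their bases, so some of its reads may belong to an antisense gene. The libraries came from a stranded kit, and whether the counting used strand is not given in the sources used here.

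Hoxb6 was called higher after UV in KO only among these comparisons (log2FC 0.74, SE 0.20, edgeR adjusted p = 0.0208; WT log2FC 0.05, adjusted p = 0.905), and the difference between genotypes did not pass (adjusted p = 1.00). The call was lost without KO_UV replicate 1 or 3, without any KO_NoUV library (adjusted p from 0.0564 to 0.0925) and without a filter. Hoxa6 stood at 3.54, 4.55, 2.69 and 3.06 CPM in FL_UV, against 6.80, 6.42, 5.52 and 5.55 CPM in FL_NoUV, without overlap. It was called lower in FL (log2FC -0.81, SE 0.22, edgeR adjusted p = 0.0297) and its log2FC in cKO was -0.68 (adjusted p = 0.0572). The cKO value passed without cKO_NoUV replicate 1 (log2FC -0.80, edgeR adjusted p = 0.0327), FL_NoUV replicate 1 (0.0462), FL_UV replicate 2 (0.0481) or cKO_UV replicate 2 (0.0464), with the replicate block (0.0366), with the hair covariate (0.032) and with DESeq2 (0.018). The FL call was lost without FL_UV replicate 1, 3 or 4 or FL_NoUV replicate 2 or 4 (adjusted p from 0.0507 to 0.0859). In the whole-body experiment Hoxa6 was a low gene with 1.08 ± 0.626 CPM in KO_UV and 1.04 ± 0.204 CPM in KO_NoUV (SD, n = 3 each). Hoxc6, Hoxb7, Hoxb8, Hoxc8 and Hoxd8 were not called after UV in any genotype by edgeR with all groups of an experiment in the fit, and had log2FC values from -0.76 to 0.33. With the KO groups alone in the fit, edgeR called Hoxc8 lower (log2FC -0.37, adjusted p = 0.0212) and Hoxc6 higher (0.33, adjusted p = 0.0357) in KO. Hoxd8 was called higher in WT without WT_UV replicate 2 (log2FC 0.48, edgeR adjusted p = 0.0459), and DESeq2 called Hoxb7 lower in WT (log2FC -0.65, adjusted p = 0.0385).

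In groups 1 to 5, 4 of 13 tested genes were higher after UV in KO and 3 in WT. Hoxb5, a lung and gut mesenchyme gene at chr11:96303336-96306121 (GRCm38), had 5.00, 5.88 and 6.89 CPM in KO_UV, against 2.09, 2.24 and 1.97 CPM in KO_NoUV, and 5.20, 6.75 and 4.58 CPM in WT_UV, against 2.40, 2.34 and 2.30 CPM in WT_NoUV. The groups did not overlap, with a log2FC of 1.497 in KO (SE 0.22, edgeR adjusted p = 6.18e-04) and 1.23 in WT (SE 0.22, adjusted p = 0.00233), held in all 18 alternatives of each. Within the keratinocyte experiment, Hoxb5 ranged from 5.02 to 8.65 CPM over the UV libraries and from 5.23 to 7.65 CPM over the NoUV libraries, which overlapped.

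Hoxd4, a hindbrain and neck gene, had 3.28, 3.03 and 1.68 CPM in KO_UV, against 1.32, 0.565 and 1.07 CPM in KO_NoUV, and 1.94, 3.03 and 1.48 CPM in WT_UV, against 0.991, 0.694 and 0.866 CPM in WT_NoUV. All UV libraries were higher, with a log2FC of 1.43 in KO (SE 0.38, edgeR adjusted p = 0.0171) and 1.33 in WT (SE 0.39, adjusted p = 0.03), each kept in 14 of 18 alternatives. The calls were lost without KO_UV replicate 1 or 2 or KO_NoUV replicate 2 or 3 in KO (adjusted p from 0.0519 to 0.0782), and without WT_UV replicate 2 or WT_NoUV replicate 2 or 3 in WT (0.071 to 0.128). Hoxd3, its neighbour, was also called (log2FC 1.25 in KO, edgeR adjusted p = 0.0256; 1.301 in WT, adjusted p = 0.0312), at 7 to 32 counts per library, and the KO call was lost without any one KO library and the WT call without any of WT_UV replicates 1 and 2 and WT_NoUV replicates 1 and 3. Of the exon bases of Hoxd4 and Hoxd3, 52.3% and 62.8% overlap each other or other genes, so their counts are uncertain and are not independent. Among cKO and FL libraries, the Hoxd4 levels were 2.68, 0.922, 1.10 and 1.79 CPM in cKO_UV, against 2.16, 2.04, 1.27 and 1.59 CPM in cKO_NoUV, and 1.11, 1.08, 1.08 and 3.24 CPM in FL_UV, against 2.41, 1.82, 2.35 and 2.85 CPM in FL_NoUV. These groups overlapped within each genotype, and neither comparison passed the threshold.

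Hoxa3, a gene of the pharyngeal arches, thymus and parathyroid, had 6.45, 7.58 and 7.50 CPM in KO_UV, against 4.23, 4.66 and 4.52 CPM in KO_NoUV, and 4.81, 5.65 and 3.39 CPM in WT_UV, against 2.56, 2.97 and 4.39 CPM in WT_NoUV. The KO groups did not overlap and the WT groups did, and neither passed in edgeR (log2FC 0.68, adjusted p = 0.0616 in KO; 0.48, adjusted p = 0.198 in WT); DESeq2 called it in KO (adjusted p = 0.026), as did edgeR with the KO groups alone in the fit (0.00557) and without WT_NoUV replicate 1 (0.0376), WT_NoUV replicate 3 (0.0462) or WT_UV replicate 3 (0.0496). Its levels were 11.7, 7.89, 9.33 and 10.48 CPM in cKO_UV, against 9.20, 13.4, 14.1 and 18.5 CPM in cKO_NoUV, and 8.31, 10.54, 7.67 and 10.2 CPM in FL_UV, against 9.63, 11.6, 10.4 and 13.2 CPM in FL_NoUV, both overlapping, with negative log2FC values of -0.48 and -0.29. Without cKO_NoUV replicate 1 the cKO value was -0.64 and was called (edgeR adjusted p = 0.0473). Of the exon bases of Hoxa3, 27.1% overlap other annotated genes, Hoxaas2 among them, so its counts are less certain.

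Hoxb2 fell after UV in WT. Of its exon bases, 27.3% overlap Hoxb3os on the other strand, so its counts are less certain. Hoxb2, a hindbrain gene, had 4.38, 3.76 and 6.54 CPM in KO_UV, against 6.62, 7.56 and 7.64 CPM in KO_NoUV, and 3.84, 5.57 and 5.24 CPM in WT_UV, against 10.6, 8.17 and 10.1 CPM in WT_NoUV. Its UV libraries were lower in both genotypes by value, with a narrow gap in KO, and it was called in WT (log2FC -0.98, SE 0.23, edgeR adjusted p = 0.0116; 17 of 18 alternatives) but not in KO (log2FC -0.57, adjusted p = 0.101; -0.84 and 0.0345 without KO_UV replicate 3). Across the keratinocyte experiment, Hoxb2 was 10.7, 5.25, 6.86 and 8.24 CPM in cKO_UV, against 16.7, 10.6, 14.98 and 14.1 CPM in cKO_NoUV, and 17.9, 6.21, 8.75 and 11.6 CPM in FL_UV, against 12.9, 16.8, 13.4 and 21.8 CPM in FL_NoUV. The log2FC was -0.86 in cKO (edgeR adjusted p = 0.0784; 0.0403 with DESeq2 and 0.0275 with the replicate block) and -0.55 in FL.

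Hoxa5, which acts in lung, neck and mammary development, was the gene of groups 1 to 5 called in the keratinocyte experiment. It had 14.1, 12.7, 11.1 and 16.6 CPM in cKO_UV, against 19.7, 18.9, 20.4 and 21.4 CPM in cKO_NoUV, and 16.3, 12.0, 14.5 and 13.6 CPM in FL_UV, against 16.004, 19.0, 17.1 and 19.96 CPM in FL_NoUV. The cKO groups did not overlap and the FL groups did, with a log2FC of -0.55 in cKO (SE 0.15, edgeR adjusted p = 0.0244) and -0.35 in FL (adjusted p = 0.156). The cKO call was kept in 17 of 23 alternatives and was lost without cKO_NoUV replicate 3 (adjusted p = 0.0617), cKO_NoUV replicate 4 (0.0631), cKO_UV replicate 2 (0.064) or cKO_UV replicate 3 (0.0658). In the whole-body experiment Hoxa5 had 14.0, 14.1 and 13.6 CPM in KO_UV, against 13.8, 19.1 and 11.8 CPM in KO_NoUV, and 13.5, 11.8 and 11.1 CPM in WT_UV, against 13.3, 16.03 and 13.6 CPM in WT_NoUV, and the groups overlapped in both genotypes. Hoxa4 was called higher in KO (log2FC 0.74, SE 0.23, edgeR adjusted p = 0.034) and the call was lost without any KO_UV library or without KO_NoUV replicate 2 or 3 (adjusted p from 0.0623 to 0.142). Hoxa2, Hoxb3, Hoxb4, Hoxc4 and Hoxc5 were not called by edgeR or DESeq2 after UV in any genotype, with log2FC values from -0.50 to 0.38.

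Hoxc13, at chr15:102921103-102928814 (GRCm38), was the tested member of groups 11 to 13, and its levels ran with those of hair genes. It had 1.79, 0.835 and 1.93 CPM in KO_UV, against 8.05, 9.44 and 8.51 CPM in KO_NoUV, and 1.71, 1.27 and 10.3 CPM in WT_UV, against 8.42, 7.10 and 11.3 CPM in WT_NoUV. The KO groups did not overlap, while WT_UV replicate 3 lay within the WT_NoUV range. Hoxc13 was called lower in KO (edgeR adjusted p = 0.013), a call lost without a filter on low counts (0.0712) and without KO_UV replicate 2 (0.0528). In WT its log2FC was -1.01 (adjusted p = 0.266), and without WT_UV replicate 3 it was -2.60 with an adjusted p of 0.00148.

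In the keratinocyte experiment Hoxc13 ranged widely within groups: 19.8, 10.3, 8.64 and 8.34 CPM in cKO_UV, against 115, 8.92, 9.10 and 8.08 CPM in cKO_NoUV, and 53.3, 14.7, 8.23 and 41.0 CPM in FL_UV, against 22.7, 21.4, 8.36 and 77.1 CPM in FL_NoUV. Neither genotype passed (log2FC -1.56, edgeR adjusted p = 0.337 in cKO; -0.15, adjusted p = 0.945 in FL). The summed level of 15 markers of the growing hair follicle was 12.9 to 19.3 CPM in KO_UV, against 66.7 to 70.5 CPM in KO_NoUV, and 23.0 to 94.3 CPM in WT_UV, against 69.4 to 136 CPM in WT_NoUV. For the keratinocyte experiment, that sum was 65.9 to 357 CPM in cKO_UV, against 120 to 7783 CPM in cKO_NoUV, and 78.0 to 2312 CPM in FL_UV, against 155 to 4614 CPM in FL_NoUV. The library with the highest sum, cKO_NoUV replicate 1, was also the highest for Hoxc13, and of the 15 markers 10 in the whole-body and 9 in the keratinocyte experiment were at 0 in at least 1 library. With the mean log2 CPM of these markers as a covariate, edgeR called Hoxc13 lower after UV in KO (log2FC -1.90, adjusted p = 0.00504) and in WT (-1.27, adjusted p = 0.0263), and not in cKO or FL. The marker sums of KO_UV and KO_NoUV did not overlap, so marker level and exposure cannot be told apart in KO. In the joint fit of both experiments, the difference of its UV effect was called with that covariate (-1.93, adjusted p = 0.00105) and not without it (-0.88).

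**Figure D3:**
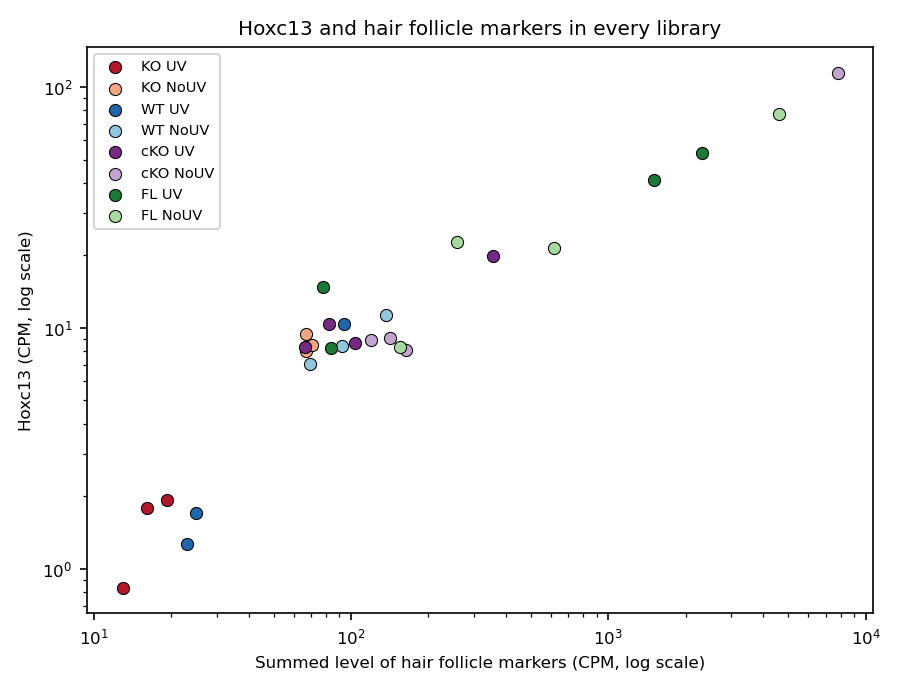
Hoxc13 CPM (vertical, log axis) against the summed CPM of the growing hair follicle markers (horizontal, log axis), 1 point per library coloured by group. Libraries with a high marker sum also had high Hoxc13, up to 115 CPM at a sum of 7783 CPM in cKO_NoUV replicate 1; the points share their library and depth.

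The other genes of groups 11 to 13 stayed at or near the floor of 3 counts, apart from Hoxc11. Hoxc11, which lies next to Hoxc10 in the cluster, had 6, 0 and 6 counts in KO_UV, against 0 in each KO_NoUV library, and 1, 1 and 7 counts in WT_UV, against 0 in each WT_NoUV library. It did not pass the filter, and without a filter edgeR called it higher in KO with an adjusted p of 0.0497. Its highest level was in FL_UV replicate 4, with 23 counts. The 7 further genes of these groups had at most 6 counts in any library.

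Summed over members per kilobase, the bands gave the same picture by library. Groups 9 to 10 summed to 15.7 ± 1.71 CPM per kb in KO_UV and 6.87 ± 0.5002 in KO_NoUV (SD, n = 3 each), and to 15.5 ± 3.07 in WT_UV and 5.94 ± 0.128 in WT_NoUV (SD, n = 3 each). As a share of the whole Hox sum this was 16.5% in KO_UV and 8.59% in KO_NoUV, and 16.8% in WT_UV and 7.43% in WT_NoUV. Within the keratinocyte experiment, the same band summed to 6.403 ± 0.585 CPM per kb in cKO_UV and 11.9 ± 6.23 in cKO_NoUV, and to 10.51 ± 5.05 in FL_UV and 12.4 ± 5.14 in FL_NoUV (SD, n = 4 each). The UV and NoUV libraries were apart in KO and WT, whereas in cKO and FL the spread within groups without UV exceeded the difference between the means.

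Groups 6 to 8 differed less, with 52.4 ± 3.36 CPM per kb in KO_UV and 45.9 ± 3.73 in KO_NoUV, and 51.6 ± 2.16 in WT_UV and 46.9 ± 3.24 in WT_NoUV (SD, n = 3 each). Their sums were 52.7 ± 5.28 in cKO_UV and 70.5 ± 9.88 in cKO_NoUV, and 55.7 ± 7.36 in FL_UV and 68.6 ± 15.2 in FL_NoUV (SD, n = 4 each). Groups 1 to 5 were nearly level in the whole-body experiment, at 25.9 ± 1.00 in KO_UV and 23.8 ± 2.41 in KO_NoUV, and 22.8 ± 1.99 in WT_UV and 23.5 ± 1.13 in WT_NoUV (SD, n = 3 each). Among cKO and FL libraries, they were lower after UV by their means, at 31.9 ± 2.73 in cKO_UV and 37.7 ± 1.73 in cKO_NoUV, and 32.4 ± 3.92 in FL_UV and 38.4 ± 3.88 in FL_NoUV (SD, n = 4 each). Groups 11 to 13, made up almost wholly of Hoxc13, followed that gene, from 0.709 ± 0.321 in KO_UV and 3.55 ± 0.306 in KO_NoUV (SD, n = 3 each) up to 46.9 CPM per kb in cKO_NoUV replicate 1.

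**Figure D4:**
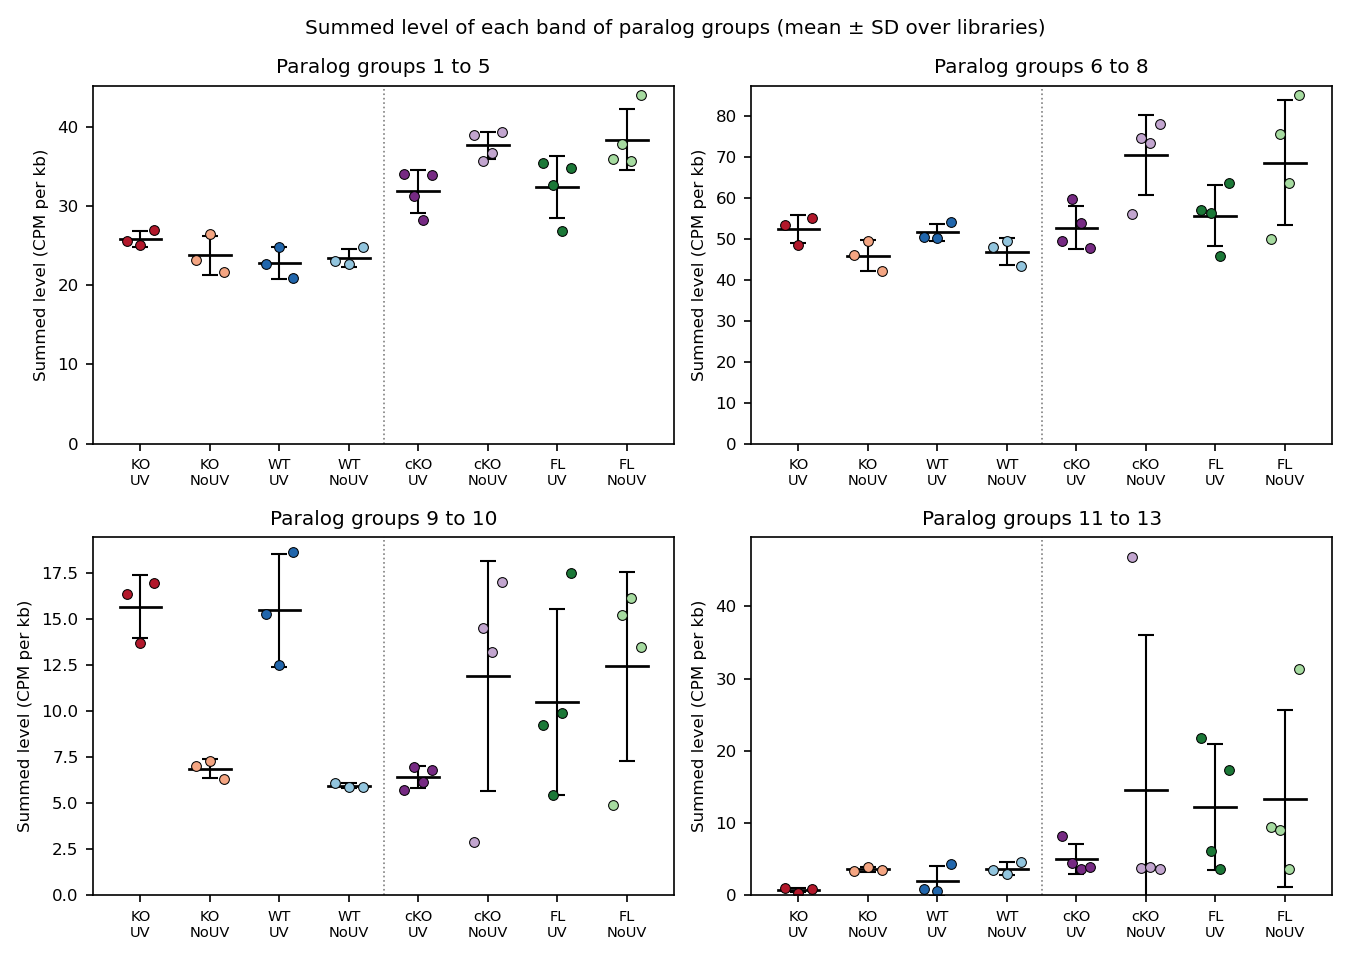
Summed CPM per kb of the Hox genes in each band of paralog groups, 1 point per library, with the mean and SD of each group as bars (the lower SD bar of cKO_NoUV in groups 11 to 13 is clipped at 0). In groups 9 to 10 the KO_UV and WT_UV libraries lie above 12 CPM per kb and the KO_NoUV and WT_NoUV libraries below 8, while cKO_NoUV runs from 2.87 to 17.0 CPM per kb.

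No Hox gene differed between genotypes at the threshold. Counts at an unadjusted p under 0.05 are given here and below without the share of all genes at that limit. For KO against WT after UV, 0 of 29 were called by edgeR, 3 were at an unadjusted p under 0.05 and DESeq2 called 0, where 0.0442% of all genes were called, 0.0393% higher and 0.00491% lower. For KO against WT without UV, 0 of 29 were called by edgeR and 6 were at an unadjusted p under 0.05, where 0.00982% of all genes were called, all of them lower. There DESeq2 called Hoxa10 higher (log2FC 1.19, adjusted p = 0.0114) and Hoxb8 lower in KO (log2FC -1.25, adjusted p = 0.00689), and edgeR without a filter called Hoxb8 (adjusted p = 0.0249). Hoxb8 stood at 3.38, 4.50 and 3.47 CPM in KO_NoUV, against 12.9, 7.19 and 6.96 CPM in WT_NoUV, which did not overlap.

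The UV effect in KO minus that in WT was called for 0 of 29 Hox genes by edgeR and by DESeq2, with 2 at an unadjusted p under 0.05, Hoxa10 (log2FC -0.95, adjusted p = 1.00) and Hoxb6 (log2FC 0.69, adjusted p = 1.00); 0% of all genes were called. For cKO against FL, edgeR and DESeq2 called 0 of 29 after UV and 0 of 29 without UV, with 2 and 0 at an unadjusted p under 0.05, where 0% of all genes were called by edgeR in each. The UV effect in cKO minus that in FL gave 0 of 29 by both tools and 1 at an unadjusted p under 0.05, Hoxc10, where again 0% of all genes were called.

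The UV effect itself differed between the experiments for part of the Hox genes. In a joint edgeR fit of the 8 groups, the mean UV effect in KO and WT minus the mean UV effect in cKO and FL was called for 9 of 30 Hox genes, all positive, where 9.09% of 21851 genes tested were called, 5.11% positive and 3.98% negative. Their median log2 difference was 0.46, beside -0.01 over all genes. By band these were 5 of 7 in groups 9 to 10 (Hoxa9, Hoxa10, Hoxb9, Hoxc9 and Hoxc10), 1 of 8 in groups 6 to 8 (Hoxa7) and 3 of 14 in groups 1 to 5 (Hoxa3, Hoxb5 and Hoxd4).

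The log2 difference was 3.61 for Hoxb9 (SE 0.60, edgeR adjusted p = 5.45e-04), 3.53 for Hoxa9 (SE 0.67, adjusted p = 0.00165) and 2.53 for Hoxa10 (SE 0.55, adjusted p = 0.00443). Hoxa7 differed by 1.54 (SE 0.27, adjusted p = 6.16e-04), Hoxd4 by 1.69 (SE 0.42, adjusted p = 0.0105), Hoxb5 by 1.19 (SE 0.21, adjusted p = 6.68e-04) and Hoxa3 by 0.97 (SE 0.23, adjusted p = 0.00683). Hoxc10 had a fitted difference of 11.15 that depends on the prior count (adjusted p = 6.69e-06). Of the 9 calls, 8 held in all 34 alternatives, while that of Hoxc9 (1.44, adjusted p = 0.0384) held in 16; it was lost without any of 17 single libraries in turn, with adjusted p from 0.0508 to 0.0783. Hoxd3 was called positive with DESeq2 (adjusted p = 0.0429), with the replicate block (0.0433) and without FL_NoUV replicate 2 (0.0477) or FL_UV replicate 4 (0.0116). Hoxd9 differed by -0.19 (adjusted p = 0.786). Batch label, Vsir allele and experiment coincide, so they cannot be told apart in this difference.

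**Figure D5:**
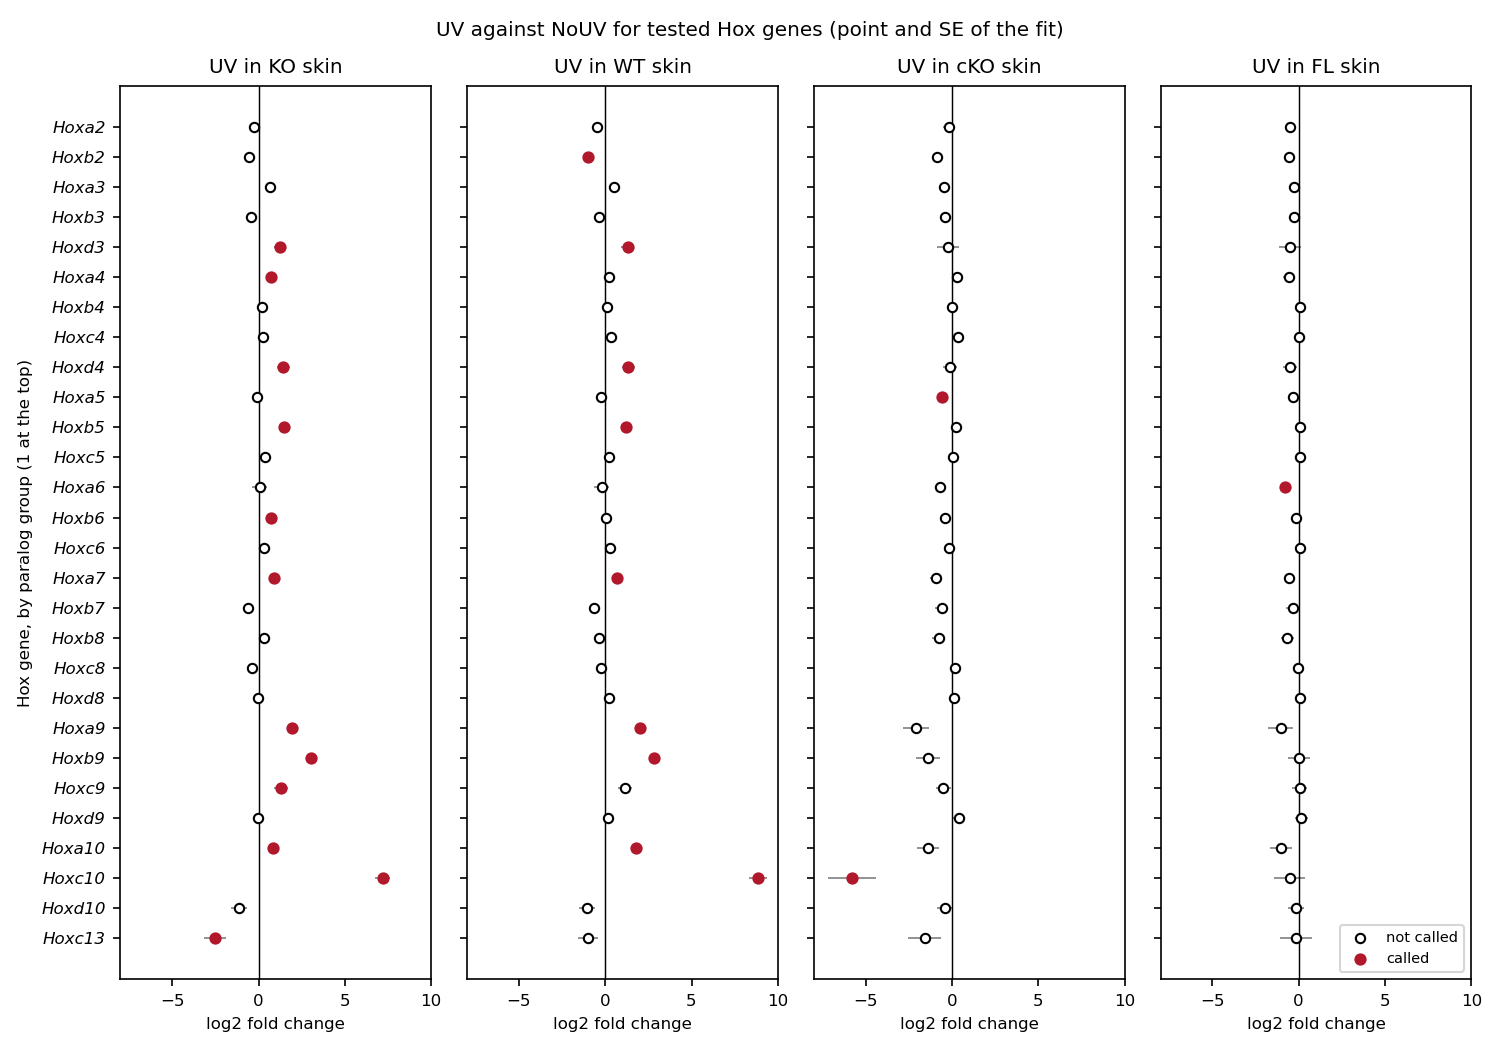
Log2 fold change after UV with its SE (horizontal) for 28 tested Hox genes (down the page, by paralog group) in KO, WT, cKO and FL skin (panels), red where the edgeR adjusted p was under 0.05. In groups 9 to 10, Hoxa9, Hoxb9, Hoxa10 and Hoxc10 lie right of 0 in KO and WT, up to 7.20 and 8.87 for Hoxc10, and in cKO Hoxc10 lies at -5.79.

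The genes whose pattern was most like that of Hoxc10 were looked up by Pearson's r of log2 CPM over the 12 whole-body libraries, as a description in which all points share library and treatment. Among the 8 highest outside the Hox genes were Gm47694, Gm4285, Prox2os, Mss51, Snhg17, Gm48796 and Gm43274, with r from 0.980 to 0.985. Over the 16 keratinocyte libraries the same genes had r from -0.60 to -0.13. In the whole-body experiment 386 of 15596 genes reached an r of 0.9 or more, Hoxc10 itself included, while in the keratinocyte experiment 2 of 16299 did, Hoxc10 and Gm53.

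Within the Hox genes, by the smaller r of the 2 experiments, likeness to Hoxc10 was highest for Hoxa9 (r 0.96 in the whole-body and 0.86 in the keratinocyte experiment), Hoxb9 (0.98 and 0.83), Hoxa10 (0.83 and 0.78) and Hoxa7 (0.88 and 0.75). In the whole-body libraries alone, Hoxb5 (0.95, and -0.24 in the keratinocyte experiment) stood above Hoxa7, and Hoxd4 (0.84 and 0.32) above Hoxa10. Hoxd9, in the same paralog groups, had 0.26 and 0.08. Gm53, chosen after its values were seen, is a noncoding gene at chr11:96251105-96264868 on the plus strand (GRCm38), between Hoxb13 and Hoxb9, with an r of 0.98 and 0.91. Its level was 9.11, 8.31 and 9.38 CPM in KO_UV, against 1.04, 0.895 and 0.724 CPM in KO_NoUV, and 9.88, 11.1 and 9.16 CPM in WT_UV, against 1.34, 1.42 and 0.956 CPM in WT_NoUV. UV and NoUV were far apart in both genotypes (log2FC 3.33, edgeR adjusted p = 1.77e-05 in KO, and 3.02, adjusted p = 3.55e-05 in WT). Gm53 was picked for its likeness to Hoxc10, which itself separates these libraries. The gap follows from that choice, and these p-values are no separate support.

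In the keratinocyte experiment Gm53 was 5.19, 1.28, 5.35 and 1.84 CPM in cKO_UV, against 4.27, 17.4, 13.1 and 15.6 CPM in cKO_NoUV, and 11.1, 1.59, 9.91 and 23.4 CPM in FL_UV, against 3.40, 17.6, 19.3 and 17.7 CPM in FL_NoUV. The libraries low in Hoxc10 within their groups, cKO_NoUV replicate 1, FL_NoUV replicate 1 and FL_UV replicate 2, were also the lowest of their groups in Gm53. This likeness, and in part the joint difference below, come from the values by which Gm53 was chosen. Neither genotype passed (log2FC -1.92, edgeR adjusted p = 0.104 in cKO; -0.34, adjusted p = 0.815 in FL), and the joint difference was 4.30 (adjusted p = 1.94e-04).

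Next to Gm53 lies Mir196a-1, the gene of a microRNA of the Hoxb cluster. Since these are ribosome-depleted long RNA libraries, its counts reflect precursor or overlapping transcripts and not the mature microRNA. The mature sequences of the cluster microRNAs are shown from RefSeq (GRCm38.p6), 5′ to 3′, with the seed, bases 2 to 8, in capitals; Mir196a-1 (chr11:96265187-96265208 on the plus strand) and Mir196a-2 on chromosome 15 encode the same sequence.
mmu-miR-196a-5p: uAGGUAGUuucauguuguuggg
mmu-miR-196b-5p: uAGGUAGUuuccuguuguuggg
mmu-miR-10a-5p: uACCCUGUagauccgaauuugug
mmu-miR-10b-5p: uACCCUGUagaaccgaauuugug
The miR-196 pair shares 1 seed and the miR-10 pair another. miR-196 is known to direct cleavage of Hoxb8 mRNA in mice, and the Hoxb8 transcript holds the nearly perfect complement below, in which the capital marks the single base that departs from it.
Hoxb8 site: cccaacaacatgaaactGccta
The departing base lies within the part that pairs with the seed, so this site is not an exact seed match. In all, 11 of the 39 Hox transcripts, searched over their whole length with the coding part included, hold a 7-base match to the miR-196 seed. The share over all transcripts was not determined.

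Mir196a-1 had 29, 32 and 49 counts in KO_UV, against 8, 11 and 7 counts in KO_NoUV, and 41, 42 and 39 counts in WT_UV, against 5, 8 and 5 counts in WT_NoUV. The UV libraries were all higher (log2FC 2.26, edgeR adjusted p = 7.58e-04 in KO; 2.82, adjusted p = 4.51e-04 in WT). In cKO and FL skin, it had 0, 1, 0 and 0 counts in cKO_UV, against 2, 19, 15 and 17 counts in cKO_NoUV, and 11, 0, 6 and 18 counts in FL_UV, against 0, 16, 22 and 23 counts in FL_NoUV. It was called lower in cKO (adjusted p = 0.0214), and the libraries at 0 or 2 counts outside cKO_UV were those low in Hoxc10. Hoxb8 was not called after UV in any genotype by edgeR (log2FC 0.32 in KO, -0.33 in WT, -0.76 in cKO and -0.66 in FL; smallest adjusted p = 0.214).

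Of 16 noncoding genes of the clusters, 7 were tested in the whole-body and 8 in the keratinocyte experiment. After UV, 3 were higher in KO (Mir196a-1, Hoxaas2 and Hoxd3os1), 1 of 7 was higher in WT and 1 of 8 was lower in cKO, in both cases Mir196a-1. Over all genes 11.3% were higher in KO, 8.91% higher in WT and 5.15% lower in cKO, and the counts in WT and cKO are single genes. Hoxaas2 shares exon bases with Hoxa3, and Hoxd3os1 with Hoxd3 and Hoxd4. Their values may therefore not be independent of those Hox genes. Hoxaas2, an antisense gene of the Hoxa cluster, had 1.296 ± 0.295 CPM in KO_UV and 0.592 ± 0.0237 CPM in KO_NoUV (SD, n = 3 each; log2FC 1.13, edgeR adjusted p = 0.0207).

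Among the cofactors through which Hox proteins bind DNA, more fell than rose after UV. Of 9 Pbx, Meis and Pknox genes, 5 were lower and 1 higher in KO, and 4 were lower and 1 higher in WT, where 11.1% of all genes were lower and 11.3% higher in KO, and 9.84% lower and 8.91% higher in WT. Pbx2 had 16.7 ± 0.663 CPM in KO_UV and 32.2 ± 1.05 CPM in KO_NoUV, and 19.0 ± 0.990 CPM in WT_UV and 34.04 ± 4.31 CPM in WT_NoUV (SD, n = 3 each; log2FC -0.94, edgeR adjusted p = 5.88e-04 in KO; -0.84, adjusted p = 0.0015 in WT). Meis1 had 8.89 ± 1.53 CPM in KO_UV and 18.0 ± 0.794 CPM in KO_NoUV, and 8.07 ± 2.13 CPM in WT_UV and 16.4 ± 2.65 CPM in WT_NoUV (SD, n = 3 each). Meis1 was also lower after UV in cKO, at 20.4 ± 1.995 CPM in cKO_UV and 31.9 ± 2.23 CPM in cKO_NoUV, and in FL, at 18.6 ± 2.47 CPM in FL_UV and 30.9 ± 1.54 CPM in FL_NoUV (SD, n = 4 each; edgeR adjusted p = 0.00325 and 0.0018). Meis3, low in skin, was the cofactor that rose (log2FC 0.73 in KO and 0.78 in WT, edgeR adjusted p = 0.0466 and 0.041). In the joint fit 1 of 9 cofactors differed between the experiments, Pbx2 (-0.66, adjusted p = 0.00224), beside 9.09% of all genes.

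Among 25 regulators of the clusters, 21 were tested, and after UV 8 were lower in KO and 7 in WT with none higher, where 11.1% of all genes were lower in KO and 9.84% in WT. They include the Polycomb genes Cbx2, Suz12 and, in KO, Ezh2, the demethylase gene Kdm6a, the menin gene Men1, the insulator factor Ctcf and the retinoic acid receptors Rara and Rarb. Cbx2 had 4.72 ± 0.955 CPM in KO_UV and 15.4 ± 1.52 CPM in KO_NoUV, and 7.72 ± 1.87 CPM in WT_UV and 18.2 ± 3.86 CPM in WT_NoUV (SD, n = 3 each; log2FC -1.70, edgeR adjusted p = 4.44e-04 in KO; -1.24, adjusted p = 0.00296 in WT). Kdm6a, which removes the Polycomb mark, had 45.4 ± 4.30 CPM in KO_UV and 85.8 ± 6.64 CPM in KO_NoUV (SD, n = 3 each), and 110 ± 10.3 CPM in cKO_UV and 172 ± 6.60 CPM in cKO_NoUV (SD, n = 4 each). In cKO, Cbx2, Ctcf and Kdm6a were lower, and in FL, Ctcf and Kdm6a were lower and Aldh1a2 and Kdm6b higher, beside 5.15% of all genes lower in cKO and 4.09% lower and 3.52% higher in FL. Between the experiments 4 of 21 differed, all negative (Cbx2, Gdf11, Kdm6b and Men1), beside 3.98% of all genes negative.

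Of 36 other position genes, 27 were tested in each experiment. After UV in KO, 2 were higher (En1 and Foxf1) and 5 lower (Alx4, Lhx2, Lmx1b, Meox1 and Meox2), and in WT 1 was higher (Tbx3) and 5 lower (Alx4, Lhx2, Meox1, Meox2 and Nr2f2). These are 25.9% of the 27 in KO and 22.2% in WT, near the 22.4% and 18.7% called over all genes. Meox2, a gene of limb muscle and vessel development, had 5.12 ± 0.630 CPM in KO_UV and 16.6 ± 2.02 CPM in KO_NoUV, and 5.08 ± 2.32 CPM in WT_UV and 13.9 ± 2.51 CPM in WT_NoUV (SD, n = 3 each; log2FC -1.70, edgeR adjusted p = 0.00135 in KO; -1.45, adjusted p = 0.00412 in WT). Lhx2, a gene of hair follicle stem cells, was lower with log2FC values of -1.95 in KO (adjusted p = 3.11e-04) and -1.13 in WT (adjusted p = 0.00665). Of the same genes 1 was called in the keratinocyte experiment, Foxf1, higher in FL (adjusted p = 0.00452), where 3.52% of all genes were higher. Tbx5, the forelimb gene, had 14, 3, 12 and 4 counts in FL_UV, against 0, 0, 1 and 0 counts in FL_NoUV, and 4, 7, 0 and 15 counts in cKO_UV, against 2, 3, 2 and 4 counts in cKO_NoUV. It had at most 6 counts in any whole-body library, and its joint difference was negative (adjusted p = 0.002), one of 6 negative calls of 29 tested, beside 3.98% of all genes.

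Markers of cell types in the skin were read beside these results. Keratinocyte markers summed to 9141 to 15403 CPM in KO_UV and 11739 to 15225 CPM in KO_NoUV. Their sums were 17929.8 to 29122.5 CPM in WT_UV and 21353.8 to 33525.5 CPM in WT_NoUV, all above those of KO. For KO against WT, edgeR called 0 of these 6, with 5 after UV and 4 without UV at an unadjusted p under 0.05. Without UV, 0 of 10 muscle markers were called and 7 were under that unadjusted limit for KO against WT. The share of all genes under that limit is not given here. Fibroblast markers summed to 11315 to 14724 CPM in KO_UV, against 7686 to 9172 CPM in KO_NoUV, with 3 of 6 called higher (Col1a2, Col3a1 and Dcn), and to 6590 to 9260 CPM in WT_UV, against 5525 to 9092 CPM in WT_NoUV. They summed to 4150 to 8646 CPM in cKO_UV, against 4816 to 5912 CPM in cKO_NoUV, and to 7341 to 10263 CPM in FL_UV, against 3891 to 6483 CPM in FL_NoUV, where 6 of 6 had a log2FC above 0 (median 0.63) and 0 were called (4 at an unadjusted p under 0.05). The UV and NoUV sums did not overlap in KO and FL and overlapped in WT and cKO. In skeletal muscle markers the sums were 12477 to 17171 CPM in WT_UV, against 7242 to 12522 CPM in WT_NoUV (3 of 10 higher, 1 lower), and 13165 to 21955 CPM in KO_UV, against 15026 to 20581 CPM in KO_NoUV (1 higher, 1 lower). The muscle sums were 6891 to 22457 CPM in cKO_UV, against 2768 to 10729 CPM in cKO_NoUV, and 4406 to 12376 CPM in FL_UV, against 3176 to 5452 CPM in FL_NoUV, with median log2FC values of 0.98 and 0.97. Adipocyte markers summed to 1826 to 2409 CPM in KO_UV, against 1330 to 1982 CPM in KO_NoUV, and to 1615 to 2207 CPM in WT_UV, against 1147 to 1447 CPM in WT_NoUV. Their sums were 685 to 1804 CPM in cKO_UV, against 460.4 to 999 CPM in cKO_NoUV, and 869.9 to 1167 CPM in FL_UV, against 518 to 750.3 CPM in FL_NoUV. The muscle sums overlapped in all 4 genotypes, and the adipocyte sums overlapped in KO and cKO and not in WT and FL. Of 8 tested hair markers, 4 were lower in KO and 3 in WT. These counts of markers called after UV stand beside 11.3% of all genes higher and 11.1% lower in KO, and 8.91% higher and 9.84% lower in WT. Trp63 of the keratinocyte list was lower after UV in all 4 genotypes, Prdm1 of the dermal papilla list in all 4 as well and Fgf7 of that list in KO, and Kdr and Tek of the endothelial list in KO and WT. Lep of the adipocyte list and Itgam of the immune list were higher and Cd3e lower in KO, Sox21 of the hair list lower and Actn3 of the muscle list higher in cKO, and melanocyte markers were not called in any genotype, with 0 of 5 at an unadjusted p under 0.05. With the hair marker covariate, edgeR called 10 Hox genes after UV in KO and 11 in WT, among them Hoxa9, Hoxa10, Hoxb5, Hoxb9 and Hoxc10 in both. The hair marker sums did not overlap in KO, at 12.9 to 19.3 CPM in KO_UV against 66.7 to 70.5 CPM in KO_NoUV. Marker level and exposure cannot be told apart there. The part of the hair follicle or of the other cell types in the Hox values was not tested.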

How the data were processed

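Total RNA of mouse skin, ribosome-depleted and made into stranded libraries per the labels' protocols, was sequenced in 2 experiments. The deposited tables hold raw read counts per gene, with 1 column per library. Per the submitters' processing notes, cutadapt 4.6, HISAT2 2.1.0 and featureCounts of Subread (version not given in the sources used here) were used. Whether counting used strand is not given there either. Positions are printed only for the whole-body table, whose gene starts match GRCm38. There were 0 columns of per-sample values left unused.

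Counts were analysed in R 4.3.3 with edgeR 4.0.16 (limma 3.58.1): TMM scaling, edgeR's default filter on low counts by group, a quasi-likelihood fit with 1 mean per group in each experiment, and Benjamini-Hochberg adjustment over all genes tested, called at 0.05. A joint fit of the 8 groups compared the UV effect between experiments. Log2 CPM used a prior count of 3, and the floor is 3 counts per library. Levels are CPM, divided by the gene length in the files where genes are compared. DESeq2 1.42.0, no filter, a replicate block, a hair marker covariate, fits of the compared groups alone, other scalings and leaving out each library were alternatives. The method was tested on simulated data.

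The Hox genes described in full are the 12 with the smallest p among those called. The results of 1 of them and of 1 gene outside the Hox genes are not reported here, though counts include them. Of other lists (cofactors, noncoding genes, regulators, position genes and 9 cell type lists) up to 4 called members were to be named, and more are named where a count is spelled out. The members and lists were chosen with earlier results of these data known.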

Additional observations from a re-analysis of the deposited data

Results flagged for a closer look

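In 84 sets of 4 libraries examined, 1 library stood apart from the other 3 by Dixon's 95% limit in 7 sets. Chance gives about 1 in 20 for a single set. The sets reuse the same libraries and partly the same reads, so the 7 cannot be judged against that rate. FL_NoUV replicate 1, the shallowest library, was low in Hoxb9 with 1.13 CPM, against 10.9 to 12.5 CPM in the other 3, and in Hoxa10 with 1.42 CPM, against 4.50 to 4.98 CPM. cKO_NoUV replicate 1 was low in Hoxa7 with 30.5 CPM, against 76.5 to 84.8 CPM. The same library was high in Hoxc13 with 115 CPM, against 8.08 to 9.10 CPM, and in the sum of paralog groups 11 to 13 with 46.9 CPM per kb, against 3.54 to 3.88. FL_UV replicate 4 was high in Hoxd4 with 3.24 CPM, against 1.08 to 1.11 CPM, and in Hoxd3 with 1.36 CPM, against 0.241 to 0.384 CPM, genes that share exon bases.

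The UV effect in the whole-body experiment minus that in the keratinocyte experiment passed edgeR's test for 9 Hox genes. On the log2 scale the difference was 0.97 for Hoxa3, 1.54 for Hoxa7, 3.53 for Hoxa9, 2.53 for Hoxa10 and 1.19 for Hoxb5. It was 3.61 for Hoxb9, 1.44 for Hoxc9, 1.69 for Hoxd4 and a fitted 11.15 for Hoxc10.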

How the results depend on the processing

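Of 1313 values under alternative settings, 1187 were rated as kept, 32 moved, 94 lost a call of a single gene and 0 reversed. A count of calls was rated as kept if equal or close in size, whichever genes it held, and counts that stayed at 0 are included. A single gene was rated as kept if its sign and call held, whatever its size. A summed level was rated as kept if it shifted by less than the SD between libraries. The Hox counts below are given without the calls over all genes in the same fits. KO against WT without UV gave 2 Hox calls with DESeq2 and 1 with no filter, against 0. With only the compared groups in the fit, UV in WT gave 5, against 10, and UV in KO gave 17, against 13. UV in cKO, with 2 calls, gave 5 with DESeq2, 5 with the replicate block, 4 with the hair covariate and 0 both with no filter and with only the compared groups. UV in FL, with 1 call, gave 0 with no filter, 0 with only the compared groups and 0 without FL_NoUV replicate 1 and cKO_UV replicate 3 together, an alternative chosen after seeing the data.

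Leaving out each library in turn gave 6 to 14 calls for UV in KO, 8 to 11 in WT, 1 to 7 in cKO, 0 to 1 in FL and 8 to 10 for the joint difference. The FL call of Hoxa6 was lost without FL_UV replicate 1, 3 or 4 or FL_NoUV replicate 2 or 4. For groups 9 to 10 the log2 ratio of summed levels after UV in KO was 1.33 without division by gene length, against 1.19. For groups 11 to 13 it ranged with single libraries left out from -2.36 to -0.51 for UV in WT, from -1.85 to 0.0050 for KO against WT after UV, from -1.86 to 0.44 for UV in cKO and from -1.85 to 0.98 for cKO against FL without UV. WT_UV replicate 3 and cKO_NoUV replicate 1 gave the ends farthest from the full values of -0.93, -1.42, -1.53 and 0.12.

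Same-numbered libraries correlated from -0.38 to 0.33 over 18 pairs in the whole-body experiment (median 0.12, 11 pairs over 0.1). In the keratinocyte experiment they correlated from -0.24 to 0.53 over 24 pairs (median 0.20, 13 pairs over 0.1). The numbers are not stated to pair mice, so they were not taken as pairs in the main fit. With the replicate block the counts were 13 for UV in KO, 11 in WT, 5 in cKO, 1 in FL and 10 for the joint difference, and 0 in the other comparisons. Intervals of Hoxc10 and floors cover counting error only, and at 7.12 M counts a gene at the floor is less well resolved than at 43.84 M.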
